A study of Mus musculus with 3 samples.

Results

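*S100* genes encode small proteins with a pair of EF-hand motifs that bind calcium, and 10 of them are described here across cell classes of the male mouse urogenital sinus and prostate. They were chosen by name, with earlier results of these data known: *S100a1*, *S100a4*, *S100a6*, *S100a9*, *S100a10*, *S100a11*, *S100a13*, *S100a14*, *S100a16* and *S100b*. They make up 10 of the 16 *S100* rows and of the 9781 gene rows used. Single cell RNA-seq libraries had been prepared from E18.5 male urogenital sinus (UGS, which gives rise to prostatic buds), P14 prostate and P35 prostate. Each group had 1 library, and all were labelled normal. Experimental mice had a mixed C57BL/6 and 129S1/SvImJ background per the study's methods. Genotype and number of animals behind each library are not given in the sources used here. All tissues had been digested with collagenase and then TrypLE.

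Most S100 proteins work as dimers that expose a binding face once calcium is bound and so pass a calcium signal on to partner proteins. Some are used as markers of a cell type, such as S100B in Schwann cells and S100A8 with S100A9 in neutrophils and monocytes. S100A10 departs from the rule, since it no longer needs calcium and holds annexin A2 at the membrane. Many family members are expressed in epithelia, and most of their genes lie side by side with those of the epidermal differentiation complex, which encodes proteins of the cornified layer of the skin.

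All 14573 cells shared 1 table, and their barcodes carry 1 of 3 endings. The labels do not say which tissue an ending stands for, so cells are given as barcode sets 1, 2 and 3, and no comparison between ages was made. In published cell number the UGS matches the smallest set, while the prostates match no set. That match was not used to name a set. Set 1 stood apart in depth. Its 766 cells had 19357 unique molecular identifiers (UMIs, tags that count captured mRNA molecules) at the median, while sets 2 and 3 had 5350 and 8457 cells and medians of 1738 and 1788. Total UMIs were 20511786, 15929745 and 27444044, and 14 barcodes occurred in 2 sets. Levels are CPM, a gene's UMIs added up over a class and divided by that class's total, times 1000000, and carry an exact 95% Poisson interval. Every interval covers counting error only, and with 1 library per group no test was made.

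The 14476 cells with at least 200 genes formed 14 clusters, found without any *S100* row among the features, and clusters were named from marker lists without *S100* genes. Epithelium-like cells (clusters 3, 4 and 5) numbered 127, 1420 and 2686 in sets 1, 2 and 3. Fibroblast-like cells (clusters 1, 2 and 6) numbered 398, 1796 and 2672, and smooth muscle-like cells (cluster 0) 71, 1611 and 1953. Rarer classes were endothelium-like (38, 96 and 198), leukocyte-like (38, 25 and 177), glia-like (21, 190 and 236) and neuron-like (25, 12 and 17) cells. Different clusters held most of a class in different sets. Cluster 4, with *Tspan1* and *Cldn3* among its leading genes, held 103 of the 127 epithelium-like cells of set 1, but 425 and 953 cells of sets 2 and 3. Clusters 3 and 5, with *Sfn* and *Serpinb5* among theirs, held the rest, and cluster 3 carried 6 of 13 epithelial markers. Cluster 6 held 211 of the 398 fibroblast-like cells of set 1, against 170 and 81 cells of the other sets. Clusters 9, 11 and 12 stayed unnamed. Cluster 11, with *Wfdc15b*, *Cd52*, *Ivl*, *Sprr2f* and *Upk1a* among its leading genes, carried all 13 epithelial markers with a row and had 33, 39 and 102 cells.

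Together the 10 members contributed 8969 CPM (95% interval 8894 to 9046) to epithelium-like cells of set 1. This epithelium-like sum was 5172 CPM in set 2 and 4082 in set 3. In fibroblast-like cells it was 2597, 4401 and 3287 CPM, and in smooth muscle-like cells 1051, 2474 and 1907. The epithelium-like sum thus lay above both stromal sums in every set, and the smooth muscle-like sum was the lowest of these 3 classes. It was not the highest of all classes in set 3 (interval 4050 to 4113). There neuron-like cells stood at 4439 CPM (4171 to 4719) and glia-like cells at 4348 (4107 to 4598). A UMI of a 3′ library stands for a captured molecule whatever the length of its transcript. Other differences in capture between genes were not tested, so UMI shares of different genes are descriptions only. *S100a6*, *S100a10* and *S100a11* made up most of the *S100* UMIs in each class with the exception of leukocyte-like cells of set 1, where *S100a9* held 61.6%. Those *S100a9* UMIs came from 2 of 38 cells.

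**Figure D1:**
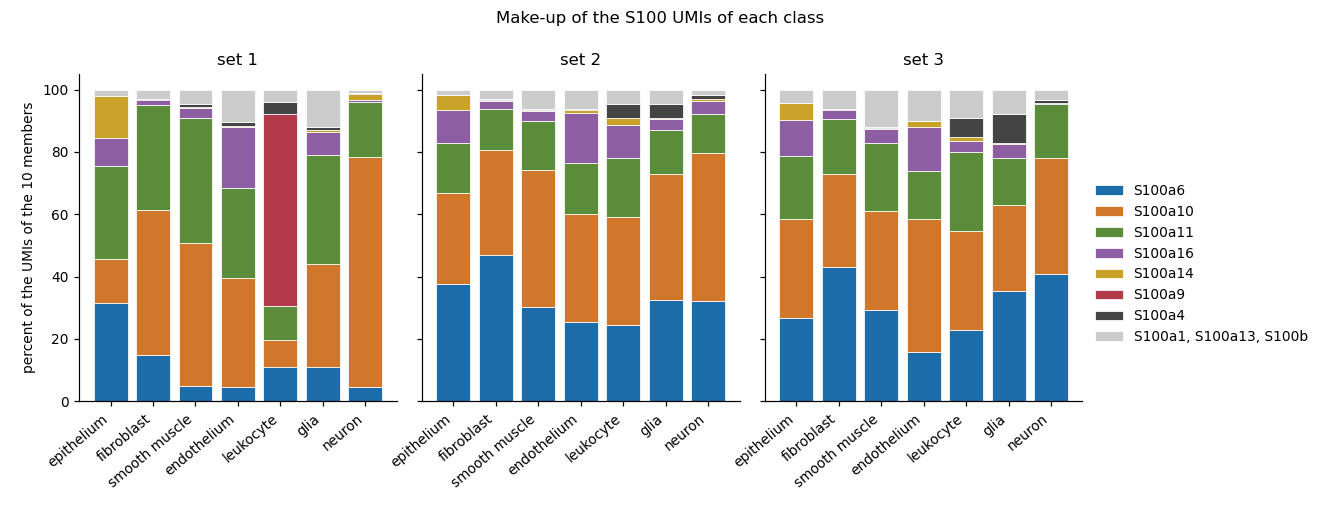
Percent of the UMIs of the 10 members (vertical axis) that each member held in every class (horizontal axis), with 1 panel for each barcode set and no error drawn. S100a6, S100a10 and S100a11 fill most of each bar except that of leukocyte-like cells of set 1, where S100a9 holds 61.6%, from 2 of 38 cells.

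Epithelial and stromal cells were compared to ask which members separate these compartments. A gene was called when its rates differed at least 2-fold, among genes with at least 20 UMIs over both classes. Of the 10 members, 8 reached that minimum and *S100a9* and *S100b* did not. In set 1, 5 members were called higher in epithelium-like cells (*S100a1*, *S100a6*, *S100a11*, *S100a14* and *S100a16*), while 14.6% of all genes tested were, and 0 were called lower, against 25.3% of all genes. In set 2, 2 members (*S100a14* and *S100a16*) were called higher against 15.4% of all genes, and 0 lower against 20.1%. In set 3, the same 2 members were called higher against 21.7% of all genes, and *S100a4* lower against 21.8%. The median log2 ratio of these 8 members was 1.94, -0.03 and 0.36 in sets 1, 2 and 3, beside -0.20, -0.08 and 0.15 over all genes tested. In sets 2 and 3 the members called were thus few, beside shares of all genes that were not small, and of the 8 members only *S100a14* and *S100a16* were called in every set. Without integration, where 5 fibroblast-like cells of set 1 remained, the log2 ratio of set 1 was 1.35 for *S100a14* and 0.73, under 2-fold, for *S100a16*.

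**Figure D2:**
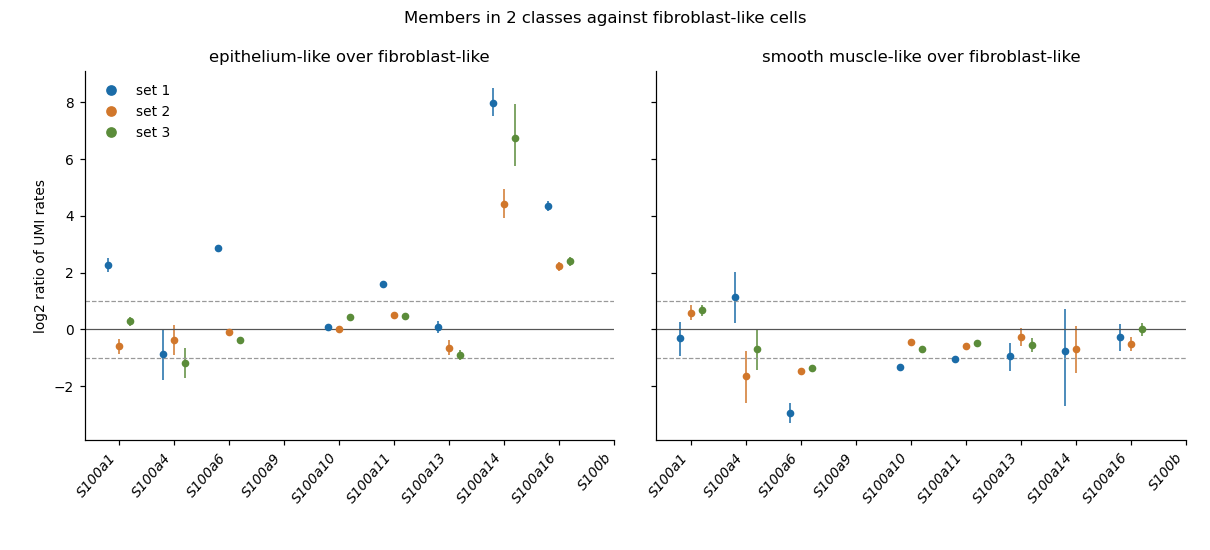
Log2 ratio of UMI rates (vertical axis) of each member (horizontal axis) in epithelium-like (left) and smooth muscle-like (right) over fibroblast-like cells, with exact 95% intervals of counting error and dashed lines at 2-fold, for the 3 barcode sets in colour. Members with fewer than 20 UMIs over both classes are left out, and S100a14 and S100a16 lie above the upper dashed line in all 3 sets on the left.

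*S100a14*, a family member with altered calcium binding that is typical of epithelia, had the highest ratio. Its rate in epithelium-like cells was 1214 CPM (1186 to 1242) in set 1, 248 (238 to 260) in set 2 and 216 (209 to 223) in set 3. In fibroblast-like cells it was 4.78 CPM (37 UMIs), 11.6 (34 UMIs) and 2.04 (8 UMIs). On the log2 scale the ratio was 7.99 (7.52 to 8.50), 4.43 (3.94 to 4.96) and 6.73 (5.75 to 7.941), so the classes lay far apart in each set. Endothelium-like cells stood at 1.90 CPM (2 UMIs), 28.0 (12 UMIs) and 48.3 (40 UMIs), below the epithelium-like rate everywhere. Next after the epithelium came neuron-like cells in set 1, at 27.8 CPM (18.6 to 39.9, 29 UMIs). In set 2 these were leukocyte-like cells, at 73.2 (26.9 to 159, 6 UMIs). A *S100a14* UMI was found in 87.4%, 57.6% and 50.9% of epithelium-like cells, at medians of 38852, 4087 and 3467 UMIs per cell. Fibroblast-like cells, which should lack this gene, showed it in 3.77%, 1.73% and 0.262% of cells, with medians of 15929, 1296.5 and 1338. With every cell thinned to 900 UMIs, *S100a14* was found in 59.5% (50.4 to 68.2), 17.9% (15.96 to 20.03) and 17.6% (16.2 to 19.1) of epithelium-like cells. In fibroblast-like cells it was then found in at most 0.752%, and the gap between the classes remained at equal depth. Epithelial markers as a list (13 with a row, 12 of them above 0) summed to 45.6, 127 and 37.9 CPM in fibroblast-like cells, highest in set 2 as was *S100a14*. The part of such transcripts in the fibroblast-like *S100a14* level was not tested.

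*S100a16*, which binds calcium weakly through its C-terminal EF hand and is widely expressed, was high in both epithelium and endothelium. Epithelium-like cells stood at 811 CPM (788 to 834), 548 (532 to 565) and 472 (462 to 483), and endothelium-like cells at 309 (276 to 344), 399 (342 to 464) and 358 (318 to 401). Fibroblast-like cells stood at 39.6, 117 and 89.6 CPM. Set against fibroblast-like cells, the epithelium-like rate gave a log2 ratio of 4.35 (4.19 to 4.53), 2.23 (2.07 to 2.39) and 2.40 (2.24 to 2.56). Epithelium-like cells had the highest rate of all classes in each set, with intervals clear of those of endothelium-like cells, which came next. Leukocyte-like cells varied most, from 6.26 CPM (3 UMIs) in set 1 to 342 (226.96 to 494) in set 2 and 72.6 (49.0 to 104) in set 3. The 13 epithelial markers summed to 70.9, 1415 and 457 CPM in these leukocyte-like cells, with 5, 10 and 11 of them above 0, and their part in the *S100a16* level was not tested.

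*S100a11*, whose protein binds annexin A1 and takes part in keratinocyte growth control, was present in every class and highest in epithelium. In epithelium-like cells its rate was 2662 CPM (2620.3 to 2703) in set 1, 829.6 (810.0 to 849.7) in set 2 and 824 (810.2 to 839) in set 3. Fibroblast-like cells stood at 869, 584 and 588 CPM and smooth muscle-like cells at 420.4, 391 and 417. The log2 ratio of epithelium-like over fibroblast-like cells was 1.61 (1.57 to 1.66) in set 1 and only 0.51 (0.43 to 0.58) and 0.49 (0.42 to 0.55) in sets 2 and 3. At 900 UMIs per cell, 80.2% (72.1 to 86.7), 54.1% (51.5 to 56.8) and 54.8% (52.9 to 56.7) of epithelium-like cells held a UMI, against 38.7%, 39.2% and 40.4% of fibroblast-like cells. As a class, the fibroblast-like shares were therefore alike in the sets, and the epithelium-like share stood out in set 1. Fibroblast-like clusters were not alike, with shares of 60.4%, 44.4% and 43.0% in cluster 2 and 26.2%, 32.5% and 38.75% in cluster 6. Cluster 4, which held most epithelium-like cells of set 1, stood at 2878, 695 and 729.8 CPM, and cluster 5 at 1371, 909 and 838. With cluster 2 alone as fibroblasts, the log2 ratio of set 1 was 0.88, which is under 2-fold.

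*S100a6* (calcyclin), which binds Cacybp and several annexins, had a different order of classes in each set. In set 1 epithelium-like cells stood at 2827 CPM (2784 to 2870), fibroblast-like cells at 384 (371 to 398) and smooth muscle-like cells at 49.9 (38.9 to 63.0). In set 2 these rates were 1940.2 (1910.1 to 1971), 2062 (2010.3 to 2115) and 751 (721 to 782) CPM. In set 3 they were 1085 (1069 to 1101), 1419 (1382 to 1457) and 555 (531 to 580.5) CPM. Epithelium-like cells were thus far above fibroblast-like cells in set 1 and slightly below them by summed UMIs in sets 2 and 3, and the log2 ratio came to 2.88 (2.82 to 2.94), -0.09 (-0.13 to -0.04) and -0.39 (-0.43 to -0.34). Glia-like cells were also low in set 1, at 144 CPM, beside 1178 and 1533 in sets 2 and 3. In set 2 the direction depended on how cells were weighted, and in sets 2 and 3 on whether mean deposited values, a log scale, were compared. In set 3 the log2 ratio of rates stayed between -0.64 and -0.05 in every other setting. In set 2 the ratio was 0.02 with cells thinned to 900 UMIs and 0.0018 with every cell weighted the same, and the mean deposited value of epithelium-like cells exceeded that of fibroblast-like cells by 0.449 in set 2 and 0.0728 in set 3.

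The high level of set 1 was not shared evenly among epithelial clusters. *S100a6* stood at 9201 CPM (15739 UMIs in 33 cells) in the unnamed cluster 11, at 3116 in cluster 4 and at 1012 in cluster 5 of set 1. In set 2 clusters 11, 4 and 5 stood at 2829.7, 1949 and 1849 CPM, and in set 3 at 2384, 1008 and 1105. Cluster 11 was the highest of these 3 in each set. Among fibroblast-like clusters, cluster 2 (led by *Dpt*) was the highest in each set, at 681, 2591 and 1645 CPM, and cluster 6 the lowest, at 123, 1157 and 1119. Against cluster 2 alone, the log2 ratio of epithelium-like cells was 2.05, -0.42 and -0.60, with the same directions as before.

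**Figure D3:**
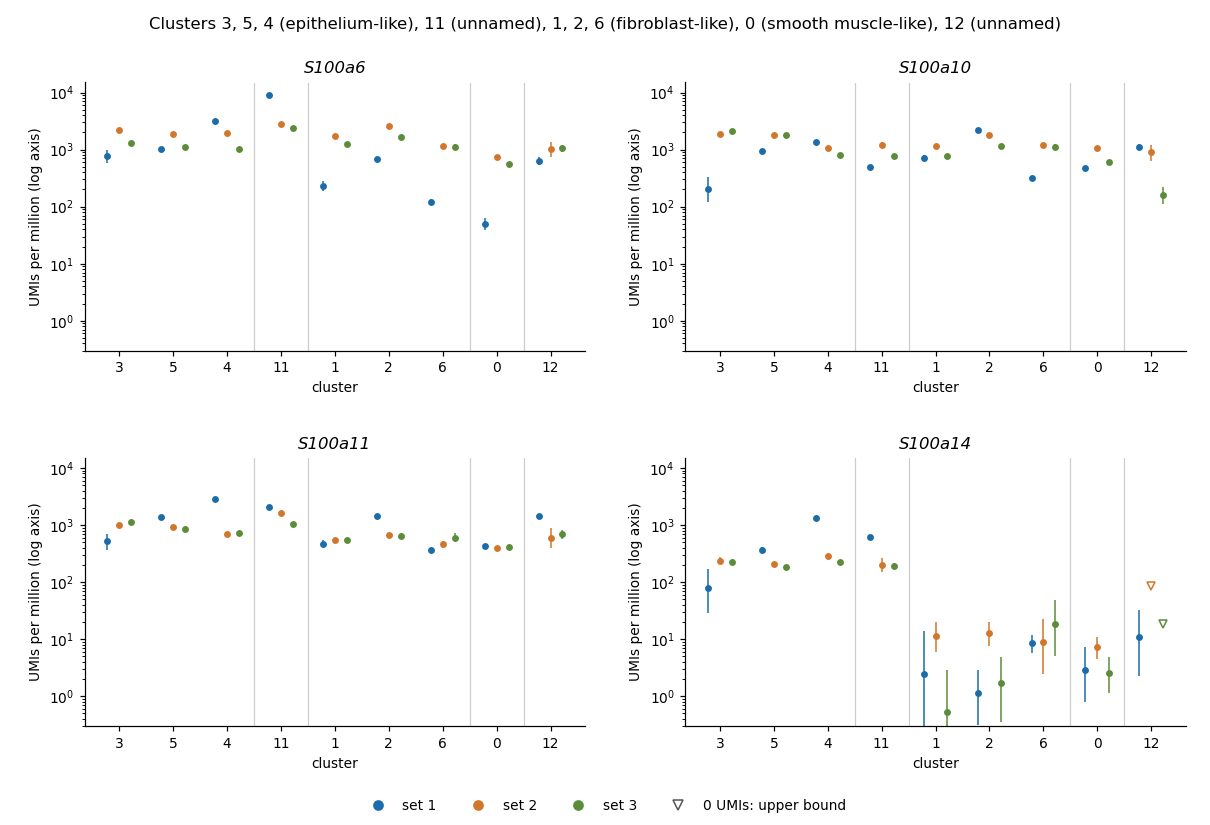
CPM (vertical log axis) of S100a6, S100a10, S100a11 and S100a14 in epithelium-like (3, 5, 4), fibroblast-like (1, 2, 6), smooth muscle-like (0) and unnamed (11, 12) clusters, coloured by barcode set, with exact 95% intervals of counting error; a triangle marks the upper bound where there were 0 UMIs, and cluster 3 had 3 cells in set 1. S100a6 reached 9201 CPM in cluster 11 of set 1, and S100a14 separates the epithelial clusters from the stromal ones.

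*S100a10*, the partner of annexin A2, was abundant in every class. Epithelium-like cells stood at 1276 CPM (1248 to 1305), 1508 (1482 to 1535) and 1303 (1285 to 1320.5), and fibroblast-like cells at 1213 (1188 to 1238), 1479.9 (1436 to 1524) and 973 (942 to 1004). The log2 ratio was 0.07 (0.03 to 0.12), 0.03 (-0.02 to 0.08) and 0.42 (0.37 to 0.47), under 2-fold in each set. Sign and size depended on which cells were counted. In set 1 the log2 ratio was 1.30 without integration, -0.14 with cluster 11 joined to the epithelium and -0.81 against cluster 2 alone. With cluster 4 alone as epithelium it was -0.45 in set 2 and -0.25 in set 3. Among epithelial clusters of sets 2 and 3, clusters 3 and 5, which share *Sfn* and *Serpinb5* as leading genes, were above cluster 4. Cluster 3 stood at 1859 and 2148 CPM, cluster 5 at 1819 and 1815.5, and cluster 4 at 1084 and 820.4. In set 1 the order of clusters 5 and 4 was the opposite, at 931.5 against 1341 CPM. The log2 ratios of cluster 5 over cluster 4 were -0.53 (-0.64 to -0.41), 0.75 (0.69 to 0.81) and 1.15 (1.10 to 1.19).

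**Figure D4:**
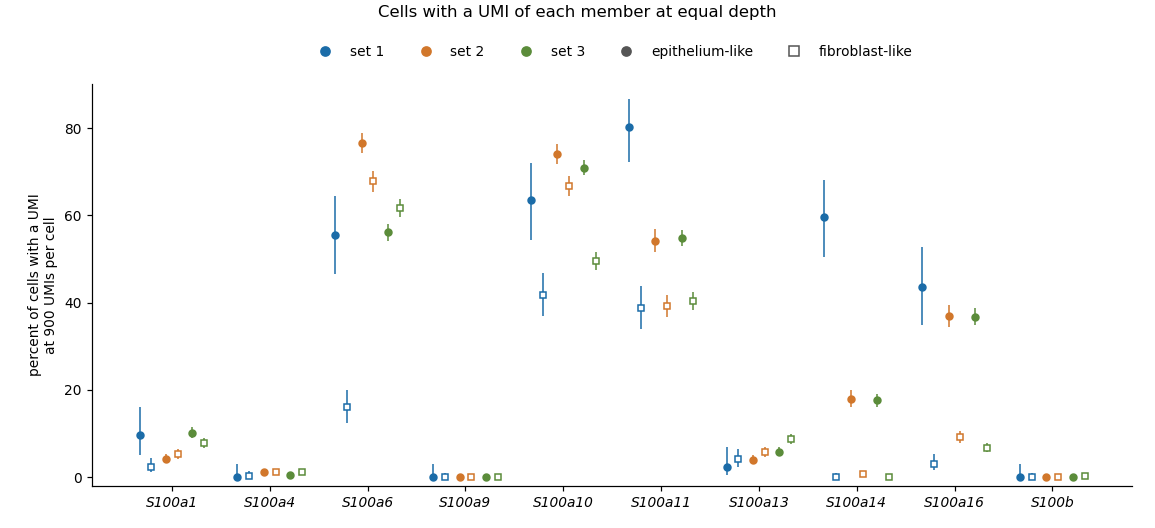
Percent of epithelium-like (circles) and fibroblast-like (squares) cells with a UMI of each member after thinning every cell to 900 UMIs (vertical axis), by barcode set, with exact 95% binomial intervals. S100a14 and S100a16 separate the classes in every set, while S100a13 and S100a4 stay under 10% in both.

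*S100a1*, a regulator of calcium handling in muscle, had its highest rate among the named classes in epithelium-like cells of set 1 but in smooth muscle-like cells of sets 2 and 3, where in set 2 its interval met that of leukocyte-like cells (73.2, 26.9 to 159). In set 1 epithelium-like cells stood at 120.2 CPM (112 to 129), fibroblast-like cells at 24.9 (21.5 to 28.7) and smooth muscle-like cells at 19.95 (13.3 to 28.8). In set 2 the rates were 44.4 (39.9 to 49.2), 67.4 (58.3 to 77.4) and 101 (90.1 to 113) CPM. In set 3 they were 122 (117 to 128), 99.8 (90.2 to 110.2) and 159 (146 to 172) CPM. Smooth muscle-like cells lay above fibroblast-like cells in sets 2 and 3, with log2 ratios of 0.59 (0.32 to 0.85) and 0.67 (0.48 to 0.86), and the interval of set 1 held 0 (-0.32, -0.95 to 0.26). Epithelium-like over fibroblast-like cells gave 2.27 (2.04 to 2.51), -0.60 (-0.86 to -0.35) and 0.29 (0.13 to 0.45), so by summed UMIs the direction was not shared by the sets. It was -1.504 in set 1 without integration, and by mean deposited value epithelium-like cells were higher in set 2 as well, by 0.0275. Of the 718 UMIs in epithelium-like cells of set 1, 700 came from cluster 4. The unnamed cluster 11 stood above every named class, at 257 CPM (233 to 282), 125 (87.2 to 174) and 195 (171 to 221). Its interval met that of smooth muscle-like cells in sets 2 and 3. Cluster 4 of set 3, at 150.5 (143 to 159), also met the smooth muscle-like interval.

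Against fibroblast-like cells, smooth muscle-like cells were low in several members. In set 1, *S100a6*, *S100a10* and *S100a11* were called lower while 10.8% of all genes were, and *S100a4* higher against 3.92%. In set 2, *S100a4* and *S100a6* were called lower against 10.1% of all genes, and 0 members higher against 7.53%. In set 3, *S100a6* was called lower against 15.6%, and 0 members higher against 11.5%. The median log2 ratio of the members tested (8, 8 and 7) was -0.85, -0.55 and -0.55, beside -0.15, -0.14 and -0.10 over all genes tested. Only *S100a6* was called in every set, and its log2 ratio came to -2.95 (-3.31 to -2.60), -1.46 (-1.53 to -1.39) and -1.35 (-1.43 to -1.28). *S100a10* gave -1.32, -0.45 and -0.68, and *S100a11* -1.05, -0.58 and -0.50, each with an interval under 0. In set 1 both directions depended on the fibroblast-like cluster. Cluster 2 stood at 2232 and 1451 CPM for *S100a10* and *S100a11*. Cluster 6, with 211 of 398 fibroblast-like cells, stood at 312 (295 to 331) and 367 (348 to 387). Smooth muscle-like cells lay between these clusters, at 485 (449 to 523) and 420 (387 to 456).

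*S100a13*, which helps to release growth factors such as Fgf1 that lack a signal peptide, was highest in endothelium. Endothelium-like cells stood at 143 CPM (121 to 168), 128 (96.8 to 167) and 219 (188 to 253). Epithelium-like cells had 56.6 (50.7 to 62.9), 40.6 (36.3 to 45.2) and 53.9 (50.4 to 57.7) CPM, and fibroblast-like cells at 53.8 (48.8 to 59.3), 63.3 (54.5 to 73.1) and 101 (91.1 to 111). The endothelium-like interval lay above both in each set but met that of leukocyte-like cells in sets 1 (127, 97.3 to 163) and 2 and that of glia-like cells in sets 2 and 3. Epithelium-like over fibroblast-like cells gave a log2 ratio of 0.07 (-0.14 to 0.28), -0.64 (-0.91 to -0.37) and -0.90 (-1.08 to -0.73). It passed 2-fold lower in set 1 without integration (-3.18) and with cluster 4 alone as epithelium in sets 2 and 3 (-1.09 and -1.44), and in set 3 under other settings too, while the difference of mean deposited values was 0.0224 and 0.00381 in sets 2 and 3, with the opposite sign. At 900 UMIs per cell, 18.9% (7.96 to 35.2), 12.4% (6.33 to 21.0) and 22.2% (16.4 to 29.0) of endothelium-like cells held a UMI, against 2.38%, 3.90% and 5.85% of epithelium-like cells. Smooth muscle-like cells were lower than fibroblast-like cells in point value in each set, and their interval of the ratio held 0 in set 2 (-0.28, -0.59 to 0.03).

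**Figure D5:**
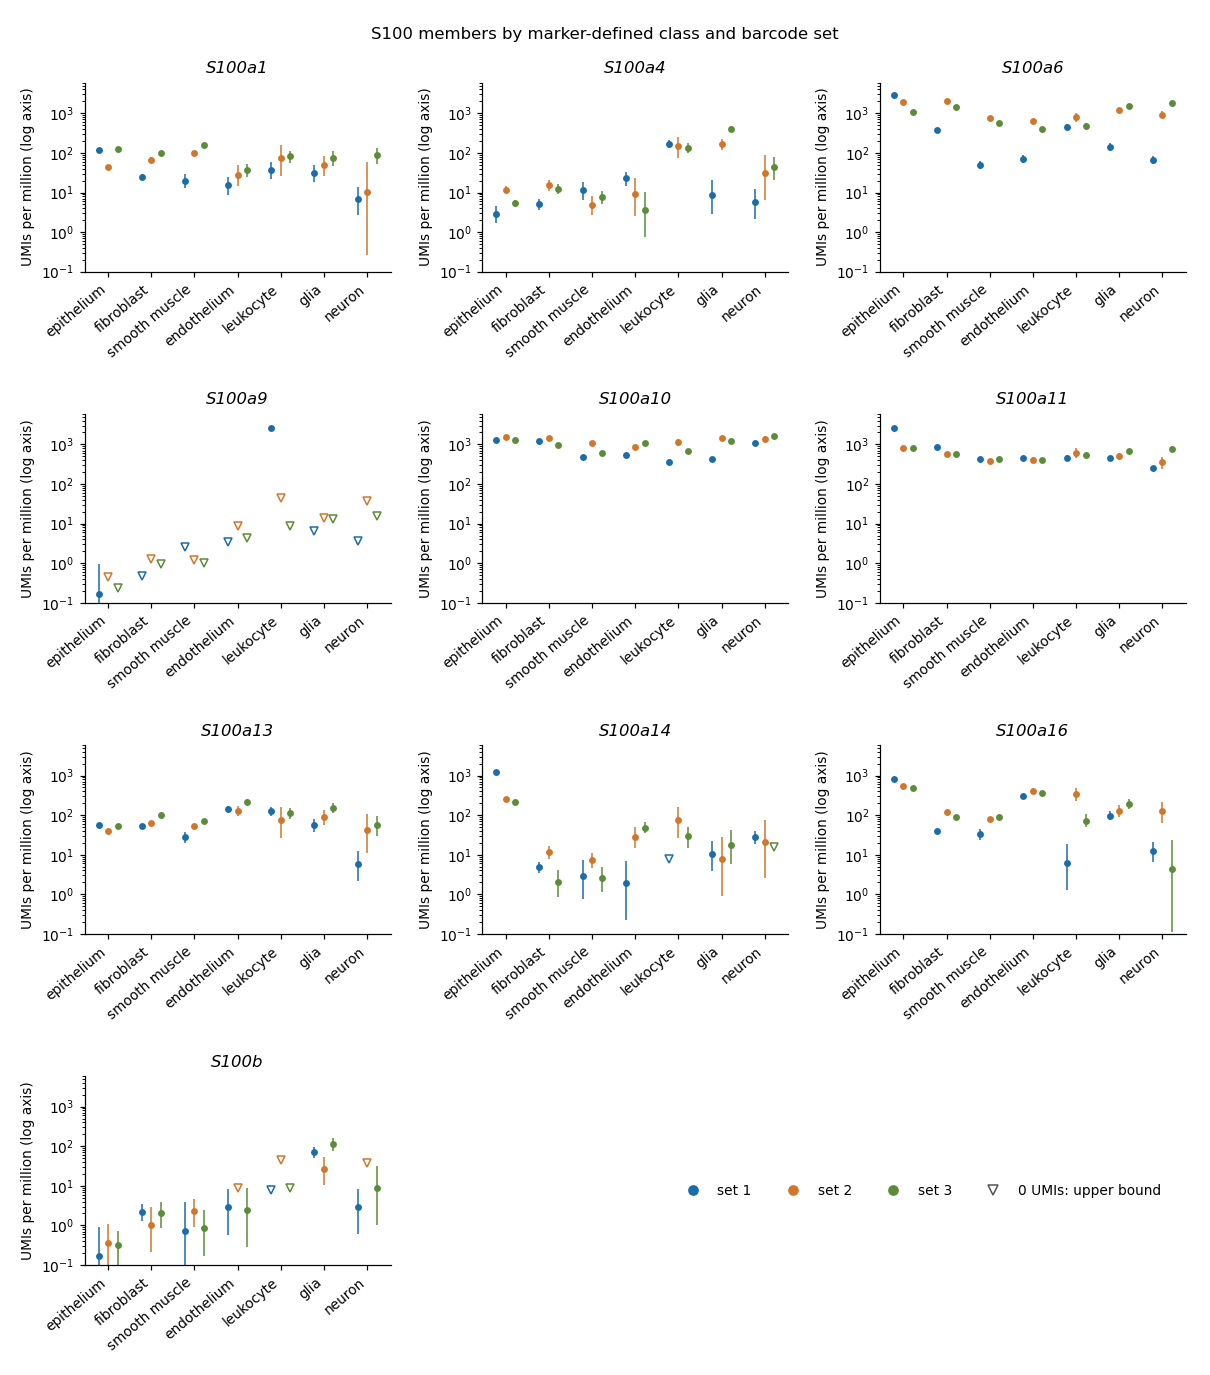
CPM (vertical log axis) of the 10 members in 7 classes (horizontal axis), coloured by barcode set, with exact 95% intervals of counting error; a triangle marks the upper bound where there were 0 UMIs, and neuron-like cells numbered 12 and 17 in sets 2 and 3. S100b is highest in glia-like cells in every set, S100a13 in endothelium-like cells, and S100a9 has a high point only in leukocyte-like cells of set 1.

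*S100a4*, also known as fibroblast-specific protein and a partner of non-muscle myosin, was low in fibroblast-like cells. These stood at 5.16 CPM (3.69 to 7.03), 15.3 (11.2 to 20.5) and 12.2 (9.01 to 16.2). The leukocyte-like rate was 167 CPM (132 to 208), 146 (75.6 to 256) and 133 (100.3 to 173). The log2 ratio of leukocyte-like over all other cells was 4.81 (4.38 to 5.23), 3.45 (2.48 to 4.29) and 3.58 (3.14 to 4.0). Of all genes tested, 12.1%, 13.2% and 11.9% had a rate at least 2-fold higher in leukocyte-like cells as counted, and 1.87%, 0.964% and 2.12% had a larger ratio than *S100a4*. With sums under 3 UMIs raised to 3, which touched 65.6% of the genes in leukocyte-like cells of set 2, the shares at least 2-fold higher were 24.3%, 55.2% and 30.1%. Its UMIs lay in 15.8%, 16% and 16.9% of leukocyte-like cells, at medians of 10313, 2027 and 2003 UMIs per cell, and in 6.53%, 1.95% and 1.72% of fibroblast-like cells. The 80 UMIs of set 1 came from 6 leukocyte-like cells, and after thinning to 900 UMIs the leukocyte-like shares were 2.63% (0.0666 to 13.8), 13.04% (2.78 to 33.6) and 13.7% (8.88 to 19.8). Glia-like cells stood at 8.67 CPM (5 UMIs), 167 (122 to 225) and 398 (328 to 479). Glia-like cells thus had the highest rate of all classes in set 3 and met the leukocyte-like interval in set 2, while in set 1 their interval (2.82 to 20.2) met those of every class but the leukocyte-like. The log2 ratio of glia-like over all other cells was -0.17 (-1.81 to 1.08), 3.86 (3.35 to 4.35) and 5.47 (5.14 to 5.80), where 10.9%, 15.5% and 19% of all genes tested were at least 2-fold higher as counted, or 21.2%, 34.2% and 40.2% with low sums raised to 3. The 10 fibroblast markers summed to 2733, 6899 and 6166 CPM in glia-like cells, with 9, 9 and 10 of them above 0, and their part in the *S100a4* level was not tested. Epithelium-like over fibroblast-like cells gave -0.86 (-1.77 to -0.01), -0.39 (-0.92 to 0.15) and -1.20 (-1.73 to -0.66, or -0.81 and under 2-fold with every cell weighted the same), and smooth muscle-like over fibroblast-like cells 1.14 (0.21 to 2.01, on 16 and 40 UMIs), -1.64 (-2.59 to -0.77) and -0.69 (-1.43 to 0.02).

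*S100b*, a marker of Schwann cells and other glia, was highest in glia-like cells of every set, although few UMIs carried this. The glia-like class was named from glial markers such as *Fabp7*, *Foxd3* and *Cdh19*, of which all 10 with a row were above 0 in each set and which summed to 6529, 5009.9 and 5831 CPM. Glia-like cells held 41, 7 and 32 *S100b* UMIs, or 71.1 CPM (51.0 to 96.5), 26.6 (10.7 to 54.8) and 114 (77.9 to 161). All other kept cells together held 25, 13 and 20 UMIs. The log2 ratio was 5.83 (5.07 to 6.60), 5.0 (3.44 to 6.43) and 7.27 (6.42 to 8.15), with larger ratios as counted in 0.265%, 0.403% and 0.289% of all genes tested. A UMI was found in 76.2% of glia-like cells of set 1, at a median of 21278 UMIs per cell, and in 3.68% and 11.9% in sets 2 and 3, at medians of 1060 and 850.5. Epithelium-like cells, which should lack the gene, had shares of 0.787%, 0.211% and 0.186%. After thinning, the glia-like shares were 4.76% (0.12 to 23.8), 3.97% (1.30 to 9.02) and 11.1% (5.87 to 18.6), so the share of set 1 no longer stood above the others. Leukocyte-like cells had 0 UMIs in each set, and 3 counts, which a count of 0 allows, would make 7.89%, 12% and 1.69% of them cells with a UMI, at medians of 10313, 2027 and 2003. The ratio of set 1 was 4.65 with cells classed one by one, and that of set 3 was 5.50 with at least 500 genes per cell.

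*S100a9* forms calprotectin with S100a8 and is abundant in neutrophils and monocytes. In set 1 it stood at 2621 CPM (2478 to 2770) in leukocyte-like cells, but 1257 UMIs came from 2 of 38 cells, and 749 of them from 1 cell. The rest of set 1 held 1 UMI, in an epithelium-like cell, and with that sum raised to 3 UMIs the log2 ratio was 14.10 (12.54 to 16.37). After thinning it was 10.30. Sets 2 and 3 held 0 UMIs in all cells. The upper 95% Poisson bound in their leukocyte-like cells was 45.0 and 8.93 CPM, both under the rate of set 1. By the 3 counts that a count of 0 allows, leukocyte-like cells with a UMI could make up 12% and 1.69%, at medians of 2027 and 2003 UMIs per cell, which limits detection and not expression. *S100a8* had 893 of its 904 UMIs of set 1 in 7 leukocyte-like cells (1862 CPM, 1742 to 1988), among them both leukocyte-like cells with *S100a9*, and was found in 18 cells of set 1 in all. It had 0 UMIs in set 2 and 3 in set 3, where 2 lay in fibroblast-like and 1 in smooth muscle-like cells. The macrophage genes *C1qa*, *C1qb* and *C1qc* were among the 10 leading genes of the leukocyte-like cluster. Of the neutrophil markers, 7 had a row. They summed to 1322, 109.8 and 2372 CPM in leukocyte-like cells, with 7, 2 and 6 of them above 0, and *Il1b*, which macrophages also express, held most of the sum in sets 1 and 3. The neutrophil receptors *Csf3r* and *Cxcr2* had rates of 27.1 and 8.34 CPM there in set 1, on 13 and 4 UMIs. Both were at 0 in set 2, and in set 3 *Csf3r* stood at 4.84 CPM, on 2 UMIs, and *Cxcr2* at 0. The part of rare neutrophils in the level of set 1 was not tested.

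Of the other 6 *S100* rows, *S100a3* had the most UMIs in sets 2 and 3. Epithelium-like cells held 7.20, 30.5 and 15.0 CPM of it, and fibroblast-like cells 2.71, 15.99 and 3.56. The log2 ratio was 1.41 (0.62 to 2.24), 0.93 (0.48 to 1.41) and 2.08 (1.30 to 2.97), above 0 in each set. The gene span of *S100a3* contains that of *S100a2*, so the split of reads between them is uncertain. *S100g*, which encodes the calbindin of intestinal calcium uptake, had 110 of its 113 UMIs of set 1 in 32 epithelium-like cells (18.4 CPM, 15.1 to 22.2) and 0 in fibroblast-like cells, a log2 ratio of at least 5.57 with a floor of 3 UMIs per class. It had 0 UMIs in sets 2 and 3. *S100a2*, *S100a5* and *S100a7a* had at most 24 UMIs in any set.

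Partners and receptors of S100 proteins were listed with 36 genes, of which 20 have a row. With 15, 13 and 13 of them tested, 6, 3 and 4 were called higher in epithelium-like cells and 4, 3 and 3 lower, with fibroblast-like cells as the reference. Of all genes, 14.6%, 15.4% and 21.7% were called higher and 25.3%, 20.1% and 21.8% lower, so the counts of lower partners were near the background. Their median log2 ratio was 0.07, 0.09 and 0.42, beside the -0.20, -0.08 and 0.15 of all genes. The annexins, which bind membranes in a calcium-dependent way and serve as S100 partners, went in different directions. *Anxa3* and *Anxa4* were called higher in every set, with log2 ratios of 3.24, 3.56 and 3.87 and of 1.52, 2.35 and 3.22. *Anxa5* was called lower in every set, at -1.32, -1.32 and -1.12, as was *Plat*, the tissue plasminogen activator, whose product S100A10 binds, at -3.03, -3.74 and -2.93. *Cacybp*, named for binding calcyclin, differed less, at -0.26 (-0.37 to -0.14), -0.09 (-0.25 to 0.08) and 0.42 (0.24 to 0.60), and did not follow the *S100a6* ratios. Of the calmodulins, the most widespread EF-hand proteins, only *Calm3* has a row, and its ratio was -1.18, -0.79 and -0.36.

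Most members are neighbours on chromosome 3 (GRCm38.p6, the assembly of mm10, coordinates from RefSeq). *S100a1* (90511034 to 90514330), *S100a13* (90514233 to 90524581), *S100a14* (90526849 to 90528837), *S100a16* (90537254 to 90543151), *S100a4* (90603770 to 90606045), *S100a6* (90612894 to 90614414) and *S100a9* (90692630 to 90695721) follow each other. *S100a11* (93520496 to 93526288) and *S100a10* (93555117 to 93564645) lie beyond them, and *S100b* is on chromosome 10 (76253836 to 76261319). *S100a1* and *S100a13* overlap at their 5′ ends on opposite strands, and at the level of 3′ reads their class orders differed as given above. *S100a14* and *S100a16*, which follow each other, had a Pearson correlation of 0.70 over 19 points, each a class of at least 20 cells in 1 set, on the scale log2(CPM + 10). The pairs with higher values were *S100a1* with *S100a6* (0.74) and *S100a11* with *S100a14* (0.71). These points share cells and libraries between genes, so the values are descriptions with no test. Of 19 listed genes of the epidermal differentiation complex, 7 have a row, and 5, 4 and 4 were tested in sets 1, 2 and 3, with 4, 3 and 3 called higher in epithelium-like cells and 1 lower in each, beside the same shares of all genes. *Sprr1a*, *Ivl* and *Lor*, which encode parts of the cornified envelope, were called higher in epithelium-like cells of every set, with log2 ratios of 6.23, 4.99 and 6.60 for *Sprr1a*. *Tchh* (trichohyalin) was called lower in every set, at -1.04, -2.73 and -2.85.

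The genes whose class pattern was most like that of a member were ranked among 3455 genes by the same correlation. Genes near *S100a14* were *Rab25* (0.97), which is among the epithelial markers used to name clusters, and *Sprr1a* (0.96). Genes near *S100b* were *Slc35f1* (0.96) and *Plekhb1* (0.95). For *S100a16* they were *Ctnnd1* (p120 catenin, 0.93), *Epha2* (0.91) and *Lama5* (0.88), and for *S100a4* *Gatm* (0.93), *Rnf13* (0.86) and *Fcgr2b* (0.84). *S100a11* was nearest to *Elf3* (0.83), another of the epithelial markers, *Upk1a* (0.82), which is on the list of urothelial markers, and *Upk3bl* (0.78), and *S100a13* to *Tpm3* (0.87), *Tor1aip1* (0.83) and *Bst2* (0.83). *S100a6* was nearest to *Tmbim1*, *Zbtb7a* and *Nipal1* (0.83, 0.83 and 0.82), *S100a1* to *Rabgef1*, *Stk17b* and *Tuba4a* (0.85, 0.80 and 0.77), and *S100a10* to *Mdn1*, *Trp53bp2* and *Ank3* (0.79, 0.79 and 0.76). For *S100a9*, whose pattern rests on 1 point, they were *Ctsd*, *Plin2* and *Mpp1* (0.88, 0.82 and 0.78).

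Promoter sequences were at hand in RefSeq (GRCm38.p6) for 8 of the 10 members. The 250 bases before the start are shown for 4 members with different class patterns: *S100a11* and *S100a16*, highest in epithelium-like cells of every set, *S100a9*, found in leukocyte-like cells of set 1, and *S100b*, highest in glia-like cells. Capitals mark matches on either strand of the TATA box (letters TATAAA), the AP-1 motif (letters TGANTCA), the GC box (letters GGGCGG) or the CCAAT box. Each runs 5′ to 3′ on its gene's strand.
S100a11, chr3:93520246-93520495, plus strand: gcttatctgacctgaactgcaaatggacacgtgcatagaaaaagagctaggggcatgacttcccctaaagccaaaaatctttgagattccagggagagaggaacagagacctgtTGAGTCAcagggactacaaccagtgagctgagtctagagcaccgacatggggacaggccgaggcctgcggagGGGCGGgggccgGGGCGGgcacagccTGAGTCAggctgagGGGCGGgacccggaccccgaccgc
S100a16, chr3:90537004-90537253, plus strand: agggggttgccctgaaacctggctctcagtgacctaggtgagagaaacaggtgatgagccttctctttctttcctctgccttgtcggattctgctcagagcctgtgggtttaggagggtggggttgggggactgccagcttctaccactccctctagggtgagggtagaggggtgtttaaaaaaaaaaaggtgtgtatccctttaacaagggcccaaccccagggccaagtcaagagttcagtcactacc
S100a9, chr3:90695722-90695971, minus strand: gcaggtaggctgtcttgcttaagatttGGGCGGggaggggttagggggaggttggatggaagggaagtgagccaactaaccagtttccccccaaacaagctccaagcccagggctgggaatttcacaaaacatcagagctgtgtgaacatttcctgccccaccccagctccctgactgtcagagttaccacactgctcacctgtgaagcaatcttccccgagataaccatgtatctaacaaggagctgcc
S100b, chr10:76253586-76253835, plus strand: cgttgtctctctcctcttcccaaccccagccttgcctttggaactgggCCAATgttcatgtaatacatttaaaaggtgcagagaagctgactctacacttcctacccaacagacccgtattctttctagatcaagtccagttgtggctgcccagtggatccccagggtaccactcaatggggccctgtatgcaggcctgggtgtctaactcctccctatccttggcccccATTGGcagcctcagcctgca
The *S100a11* stretch held 2 AP-1 and 3 GC box matches, one of the AP-1 matches ending 32 bases before the start. The *S100a9* stretch held 1 GC box match and *S100b* 2 CCAAT matches on opposite strands, while *S100a16* held none of the 4 motifs. Among all 27025 promoters of this length, 6.87% held an AP-1 match, 32.9% a GC box, 34.5% a CCAAT and 12.97% a TATA box match. Of the 8 members, only *S100a4* held the TATA letters (31 to 26 bases before the start), as did *S100a8* (30 to 25 bases), which is no member. A match is a description of letters and shows no binding.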

How the data were processed

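Dissociated cells had been captured with 10x Genomics 3′ chemistry, aligned with Cell Ranger 3.1.0 to mm10 with added mGFP and hARtg sequences, and analysed in Seurat by the authors, who removed empty droplets, multiplets and cells high in mitochondrial RNA. The labels and the methods name different versions of the kit. The authors deposited natural log values, ln(1 + 10000 × UMIs / total UMIs of the cell). Whole UMI counts were recovered from these deposited values: 100% of 11120281 values above 0 were whole within 0.05. Rates planned for deposited counts were computed on these recovered counts. The table was held only in part (9784 gene rows, 49.4% to 52.7% of each set's UMIs). The row filled only in part (1) and those with a repeated name (2) were left out. Totals of all genes came from the same recovery. No column of per-sample values was left unused.

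Cells with fewer than 200 genes (97, all in set 3) were removed. Clusters were found with Seurat 5.3.0 (R 4.3.3, Matrix 1.6.5) after integration of the 3 sets, with all *S100* rows and EGFP left out of the features. Rates, exact Poisson intervals, Clopper-Pearson intervals of shares and exact binomial intervals of log2 ratios (95%) were computed with Python 3.11.15, numpy 2.4.6 and scipy 1.17.1. A sum under 3 UMIs was set to 3 in a ratio. Calls needed a 2-fold difference and 20 UMIs over both classes. Shares were compared after thinning to 900 UMIs per cell, leaving out shallower cells. Doublets were scored with Scrublet (scanpy 1.11.5) and kept. The ratio script was tested on simulated data. Named genes were all *S100* rows, listed partners called in the same direction in every set, and for each member the 3 genes most alike over classes with a mean of at least 20 CPM. Some of these genes are not reported here. *Cacybp* was named as well, after its values were seen, as were class markers and listed calmodulin and neighbour genes. Members and lists were chosen with earlier results of these data known. Depth limits precision, and intervals cover counting error only.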

Additional observations from a re-analysis of the deposited data

Results flagged for a closer look

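*S100a1* and *S100a6* had opposite directions between the barcode sets in epithelium-like against fibroblast-like cells by summed UMIs, but not by mean deposited values, where the differences were above 0 in the sets that had been under it (0.0275 for *S100a1* in set 2, 0.449 and 0.0728 for *S100a6* in sets 2 and 3). The log2 ratio of *S100a1* was 2.27, -0.60 and 0.29 in sets 1, 2 and 3, and that of *S100a6* was 2.88, -0.088 and -0.39. The difference between sets was not tested, since each had 1 library.

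*S100* rows outside the 10 members held more UMIs over all kept cells than the 3 that a count of 0 allows. *S100a8* had 904 in set 1. *S100a3* had 72, 323 and 278 in sets 1, 2 and 3, and *S100g* had 113 in set 1. *S100a7a* had 24, 8 and 22, *S100a2* 5, 10 and 6, and *S100a5* 10 in set 1 and 4 in set 3. With 1 library per group, no library could be tested as lying far from others of its group.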

How the results depend on the processing

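The epithelium-like over fibroblast-like ratios and counts of members, the *S100b* ratio in glia-like and the *S100a9* ratio in leukocyte-like cells were recomputed under up to 9 other settings, and the first also under 3 more added after seeing the data (cluster 4 alone as epithelium, cluster 2 alone as fibroblasts, cluster 11 joined to the epithelium). Other ratios, partners, neighbours and correlations were not recomputed. Of 320 member ratios, 216 stayed within their interval (or, for mean deposited values, were not turned), 92 moved out of it and 12 with an interval clear of 0 changed sign. The number called higher in epithelium-like cells stayed at 2 in sets 2 and 3 and was 5 in set 1, but 4 without integration, where *S100a1* (-1.504) and *S100a16* (0.73) lost the call and *S100a10* (1.30) gained it, and 4 with cluster 2 alone, where *S100a11* (0.88) lost it. The number of members called lower in epithelium-like cells, relative to fibroblast-like ones, was 0 in set 1, but 3 without integration (where set 1 kept 5 fibroblast-like cells) and 1 with cluster 2 alone. In set 2 it was 0, but 1 with cluster 4 alone. In set 3 it was 1, but 2 with at least 500 genes per cell, with cells classed one by one, with cluster 4 alone and with cluster 2 alone, and 0 with every cell weighted the same. The log2 ratio of *S100b* in glia-like cells was 4.65 in set 1 with cells classed one by one and 5.50 in set 3 with at least 500 genes, and that of *S100a9* in set 1 was 10.30 after thinning. Of ratios with an interval clear of 0, these changed sign. *S100a1* gave -1.504 in set 1 without integration. *S100a6* of set 2 gave 0.0167 thinned and 0.00176 with every cell weighted the same. *S100a10* of set 1 gave -0.26 with cells classed one by one, -0.81 with cluster 2 alone and -0.14 with cluster 11 joined, and that of set 3 gave -0.25 with cluster 4 alone. By the difference of mean deposited values, *S100a1* of set 2 gave 0.0275, *S100a6* of sets 2 and 3 gave 0.449 and 0.0728, and *S100a13* of sets 2 and 3 gave 0.0224 and 0.00381. Where the interval held 0, signs also differed, down to -0.45 for *S100a10* of set 2 (cluster 4 alone) and -3.18 for *S100a13* of set 1 (without integration). With no UMI minimum, 10.3% of all genes were called higher in set 2, and 40.5% and 39.7% lower in sets 2 and 3, since sums under the floor were set to 3. The other causes were not tested. Removing 5, 229 and 559 likely doublets moved no member ratio beyond its interval (27 of 27). No paired analysis was possible because there was 1 library per group.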

Other observations

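Precision was limited by the small classes: set 1 had 21 glia-like and 38 leukocyte-like cells, and set 2 had 25 leukocyte-like cells. The labels do not assign barcode endings to UGS or prostate, and the match of set 1 to the UGS in cell number was not used. Differences between sets therefore cannot be told apart here from depth, cell makeup or age. The number of animals behind a library is not given in the sources used here, and all intervals leave out variation between animals.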
